A study of Mus musculus with 70 samples.

Results

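The 51 genes described here are a named list of cell cycle genes, matched by Entrez identifier in both deposited count tables, out of 27179 genes counted. They comprise 9 G1 cyclins, cyclin-dependent kinases (CDKs) and E2F factors, 3 CDK inhibitors, 11 genes of origin licensing and the replication fork, and 4 genes of deoxynucleotide synthesis. The other members are 6 mitotic cyclins and their partners, 6 mitotic kinases and spindle checkpoint genes, and 12 genes of the centromere, spindle and chromosomes. All 51 were present in the tables, and 50 passed the filter on low counts and could be tested. The filter was set by the smallest group, of 1 library, so a gene could pass through its counts in 1 library of any group. Mcm2, a subunit of the replicative helicase, failed the filter and had counts in 1 of 8 wild-type CLP libraries and 1 of 8 wild-type ILC2P libraries, at 4.89 and 28.8 CPM (the usual unit of counts scaled to the total of each library). Among mice labelled TCF7-/- it had counts in 2 of 5 CLP libraries, at up to 6.53 CPM, and in 1 of 4 CILP libraries, at 40 CPM.

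Each library was made from 100 sorted mouse bone marrow cells by CEL-seq, a method that amplifies polyadenylated RNA linearly and sequences short tags from its 3′ ends. The wild-type groups were common lymphoid progenitors (CLP, 8 libraries), CLP that carry the gut-homing integrin a4b7 (a4b7 CLP, 5), common innate lymphoid progenitors (CILP, 7), ILC progenitors (ILCP, 3) and ILC2 progenitors (ILC2P, 8). Mice labelled TCF7-/- gave CLP (5), CILP (4) and ILC2P (2), and mice labelled Id2-/- gave CLP (2), CILP (2) and ILCP (1). The labels give genotype, population and batch, with no strain, age, sex or treatment, and do not say whether the deletions were germline or restricted to a cell type. They do not say which sorted gate ILCP was, and the animals behind each replicate are not stated, so the p-values reflect variation among these libraries, which may be technical.

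Totals ran from 19322 to 624668 gene counts over the 47 libraries compared, and ILC2P libraries were the shallowest (19322 to 80873). CPM values use totals scaled by trimmed mean of M values (TMM). The deleted genes were checked first. Tcf7 had 166 to 779 CPM in wild-type CILP, against 0, 63.4, 25.5 and 35.6 CPM in the libraries labelled TCF7-/- CILP. In CLP it had 0 to 8.17 CPM in the wild type and 0 to 26.8 CPM in TCF7-/-, and in ILC2P 0 to 61.8 and 0 to 53.4 CPM. The counts therefore cannot show the deletion of Tcf7 in CLP or ILC2P. Id2 had 79.6 to 2286 CPM in wild-type CILP, against 116 and 27.1 CPM in Id2-/- CILP, of which 116 CPM lies inside the wild-type range. In CLP, Id2 had counts in 2 of 8 wild-type libraries (0 to 84.8 CPM) and in neither Id2-/- library, so the counts cannot show its deletion there. The Id2-/- ILCP library had 131 CPM, inside the wild-type ILCP range of 12.1 to 1228 CPM. A 3′ tag outside a deleted part would not report the deletion. Among cell type markers, CLP markers took 0.883 to 1.72% of counts in wild-type CLP and 0.131 to 0.277% in wild-type CILP, and ILC progenitor markers took 0.359 to 0.651% in wild-type CILP. Wild-type ILCP carried the ILC2-associated receptor genes Il1rl1 (296 to 1708 CPM) and Il2ra (202 to 460 CPM), which wild-type CILP had at 0 to 6.89 and 0 to 7.44 CPM. Zbtb16, which encodes the defining factor of ILC progenitors PLZF, was at 0 to 104 CPM in wild-type ILCP against 186 to 524 CPM in wild-type CILP. In 5 libraries, markers of another lineage exceeded 1% of counts, namely wild-type ILCP replicate 1, TCF7-/- CILP replicates 1 and 4, TCF7-/- ILC2P replicate 1 and the Id2-/- ILCP library. Comparisons between groups that use the first 4 of them are given with all 5 in the fit and with all 5 left out, and the Id2-/- ILCP library, alone in its group, is only described.

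Entry into the cell cycle begins with D cyclins and Cdk4 or Cdk6, which release E2F factors from pocket proteins and so turn on genes for DNA synthesis. Cdc6 and Cdt1 load the Mcm helicase at origins, and ribonucleotide reductase supplies deoxynucleotides. Cyclin A and cyclin B with Cdk1 then drive entry into mitosis, where Aurora and Polo-like kinases, kinetochore proteins and spindle motors separate the chromosomes. Many G2 and M phase genes are held down in resting cells through a promoter element called CHR, and often carry CCAAT boxes to which the activator NF-Y binds. Lymphoid progenitors of the marrow alternate between proliferation and rest, and the quiescent state is marked by CDK inhibitors such as Cdkn1b.

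Promoter windows, from 250 bases before to 50 bases after a transcript start listed by RefSeq, were taken from RefSeq (GRCm38.p6) for 40 of the 51 members. The 4 printed here belong to members that fell between wild-type stages and that hold E2F or CHR letters, so that the letters can be seen in place. Capitals mark the E2F letters TTTCGCGC or TTTGGCGC and the CHR letters TTTGAA or TTCGAA, searched on both strands, and all 4 windows are on the minus strand.
The window of Mcm7 is chr5:138171834-138172133, that of Mcm6 is chr1:128359656-128359955, that of Mcm3 is chr1:20820263-20820562 and that of Top2a is chr11:99024140-99024439. For Mcm7 and Top2a the start used lies inside the gene span given with their values.
Mcm7: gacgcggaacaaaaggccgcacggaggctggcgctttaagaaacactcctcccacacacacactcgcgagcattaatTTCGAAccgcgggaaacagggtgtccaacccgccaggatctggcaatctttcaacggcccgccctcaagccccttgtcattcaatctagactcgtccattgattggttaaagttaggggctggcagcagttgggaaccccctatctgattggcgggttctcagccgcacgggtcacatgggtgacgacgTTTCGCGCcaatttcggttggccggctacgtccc
Mcm6: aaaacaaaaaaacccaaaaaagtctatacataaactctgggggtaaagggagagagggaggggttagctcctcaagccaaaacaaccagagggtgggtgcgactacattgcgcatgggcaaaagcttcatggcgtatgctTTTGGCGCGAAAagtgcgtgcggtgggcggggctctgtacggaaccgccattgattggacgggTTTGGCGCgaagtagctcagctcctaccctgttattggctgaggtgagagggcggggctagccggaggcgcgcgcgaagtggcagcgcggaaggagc
Mcm3: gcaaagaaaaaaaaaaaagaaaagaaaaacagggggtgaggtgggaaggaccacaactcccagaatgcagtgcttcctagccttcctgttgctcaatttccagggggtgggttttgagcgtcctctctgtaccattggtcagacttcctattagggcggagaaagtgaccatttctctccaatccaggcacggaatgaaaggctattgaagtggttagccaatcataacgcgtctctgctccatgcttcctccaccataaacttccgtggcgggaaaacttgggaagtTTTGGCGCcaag
Top2a: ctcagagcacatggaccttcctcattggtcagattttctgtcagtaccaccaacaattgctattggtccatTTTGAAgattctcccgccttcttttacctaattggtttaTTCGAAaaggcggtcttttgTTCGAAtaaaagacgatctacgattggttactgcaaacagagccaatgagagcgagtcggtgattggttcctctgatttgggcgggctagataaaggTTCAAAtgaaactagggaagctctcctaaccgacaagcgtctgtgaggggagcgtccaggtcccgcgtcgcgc
Mcm6 holds E2F letters at -110, overlapping a match on the other strand at -106, and again at -47, counted from the start used for the window to the first base of each match. Top2a holds CHR letters at -179, -140, -120 and -23, the last of them read on the other strand.

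E2F letters were found in the windows of 7 of the 40 members (17.5%), 5 of them among the 9 licensing and replication fork genes with a window, against 0.813% of all 32851 RefSeq windows of the same length. CHR letters were found in 17 of the 40 (42.5%) against 19.2% of all windows. Of the genes with a window, these were 4 of 5 mitotic cyclin genes, 4 of 5 mitotic kinase genes, 5 of 7 centromere and spindle genes and 3 of 9 licensing genes, with the others in the remaining classes. The letters CCAAT, on either strand, were in 29 of the 40 (72.5%) against 37.4%. A match describes the letters in the window and does not show that a factor binds there.

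As a share of all gene counts, the 51 genes were highest in the early wild-type progenitors and lower from CILP onward. The share had a lowest, median and highest value of 0.34, 0.789 and 1.16% in CLP and of 0.918, 1.24 and 1.31% in a4b7 CLP. It was 0.118, 0.284 and 0.448% in CILP and 0.0734, 0.229 and 0.267% in ILC2P, and the 3 ILCP libraries had 0.31, 0.265 and 0.313%. All a4b7 CLP libraries lay above all CILP, ILCP and ILC2P libraries, while the lowest CLP library overlapped the CILP range. In ILC2P replicates 1, 3 and 4 these shares rest on 32, 67 and 48 member counts, fewer than the 88 in the highest spike-in control well. CLP shares differed by batch, at 0.937 to 1.16% in batch 1 and 0.34 to 0.814% in batch 2. In a library of sorted cells, fewer cycling cells and less of each transcript per cell cannot be told apart.

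**Figure D1:**
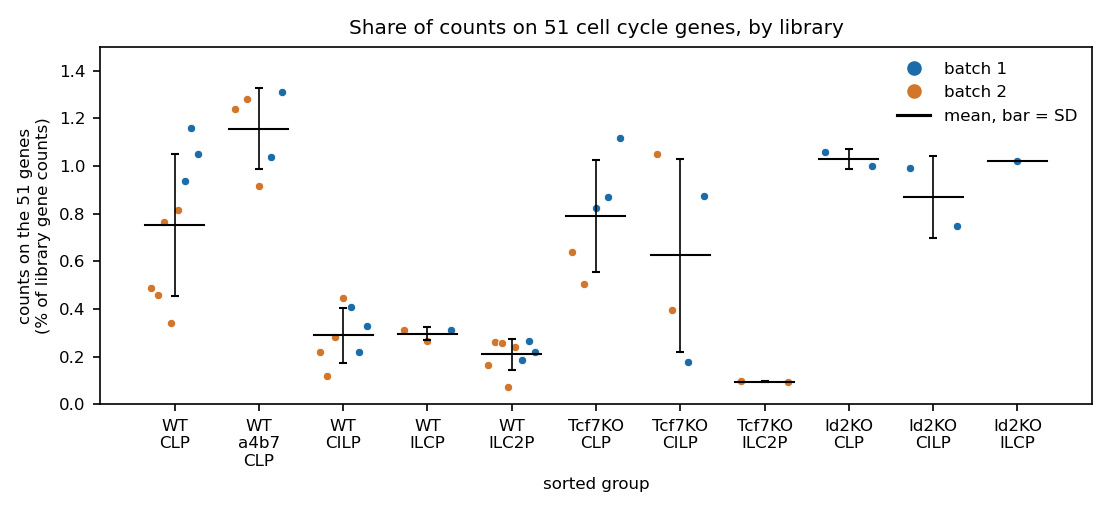
Share of all gene counts taken by the 51 cell cycle genes (percent) in each library, by genotype and population, with batches in separate colours and bars for the mean ± SD. Wild-type CILP, ILCP and ILC2P libraries lie at or below 0.448%, both Id2-/- CILP libraries lie at 0.747% or above, and the 4 TCF7-/- CILP libraries spread from 0.179 to 1.05%.

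No member differed between a4b7 CLP and CLP in edgeR's quasi-likelihood test, at a Benjamini-Hochberg adjusted p under 0.05 over 10972 genes. In that comparison 0.0456% of all genes were called, 1 member passed an unadjusted p under 0.05 against 7.57% of all genes, and neither DESeq2 nor limma-voom called a member. The members' log2 fold changes had a median of 0.74, with 44 of 50 above 0, against 0.07 over all genes tested.

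Between CLP and CILP, 9 members fell and none rose, against 1.97% of all genes called lower. They were the subunits of ribonucleotide reductase (Rrm1 and Rrm2), the cyclin A gene Ccna2 with its partner Cdk1, the checkpoint kinase gene Bub1, and the chromosome and spindle genes Top2a, Tpx2, Ska1 and Pimreg. The median log2 fold change of the members was -1.61, with 43 of 50 below 0, against 0.06 over all genes. Ccna2 and Cdk1 also did not overlap between the 2 groups, which held for 0.538% of all genes in the lower direction. No G1 gene, CDK inhibitor or licensing gene was called, although all 10 licensing genes tested had a negative log2 fold change (median -1.28). In batch 1 alone 5 members were called, of which only 2 (Top2a and Ccna2) were among these 9, and in batch 2 alone none (0). The member medians were -2.20 and -1.29.

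Leaving out 1 library at a time kept Ska1, Tpx2, Ccna2 and Rrm1 called between CLP and CILP in each fit. Cdk1 lost the call without CILP replicate 2 or 3, and Top2a without CILP replicate 2, 3, 7 or 8. Pimreg lost it without CILP replicate 2, 3, 4 or 5 or CLP replicate 7, and Rrm2 without CILP replicate 3 or 7 or CLP replicate 3. Bub1 lost it without any 1 of CILP replicates 3 to 8 or CLP replicates 2, 3 and 7. Without CILP replicate 3 the count of called members was 4.

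Set against a4b7 CLP, the CILP libraries were lower in 12 members, which were the same 9 together with Stmn1, Mcm7 and E2f2, against 1.44% of all genes called lower. This comparison and the one with CLP share the CILP libraries. The member median was -2.45 with 47 of 50 below 0, against 0.01 over all genes. For 12 members all CILP libraries lay below all a4b7 CLP libraries, against 1.36% of all genes. Batch 1 alone called 7 members, 4 of them among these 12, and batch 2 alone called 1, with member medians of -2.64 and -2.68. Ccna2, Rrm1, Cdk1, Pimreg, Top2a and Stmn1 stayed called on leaving out any 1 library, whereas without CILP replicate 3 or a4b7 CLP replicate 2 only 7 members were called. Bub1 lost the call without a4b7 CLP replicate 2, and Tpx2 without that library or CILP replicate 2 or 3. Mcm7 and E2f2 lost it in 9 of 12 such fits, and Rrm2 and Ska1 in 10.

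From CLP to ILC2P, 22 members fell and none rose, against 8.0% of all genes called lower. By role these were 7 of the 10 licensing and fork genes tested, 7 of 12 centromere and spindle genes, 3 of 9 G1 genes, 2 of 4 deoxynucleotide genes, 2 of 6 mitotic kinase genes, 1 of 6 mitotic cyclin genes and none of 3 CDK inhibitors. The fitted median was -2.78, and -2.42 with the 8 members that had no count in ILC2P set at their bound, against -0.43 over all genes. With DESeq2 size factors in place of TMM the median of all genes moved to -0.18, that of the members to -2.52, and 15 members were called. For Cdc45, Mcm6, Mcm7, Aurka, Stmn1 and Top2a every ILC2P library lay below every CLP library, against 1.29% of all genes. Batch 1 alone called 18 members, 10 of them among these 22, and batch 2 alone 5. On leaving out 1 library at a time, 14 of the 22 stayed called in each fit, and the fewest called was 16. Cdk4, E2f1, Ccne1, Mcm4, Ccnb1, Plk1, Ska1 and Tpx2 each lost the call in 4 to 12 of the 16 fits. Leaving out both shallow ILC2P libraries (replicates 1 and 3) gave 15 calls.

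Between CILP and ILC2P, 6 members fell, namely Mcm7, Mcm3, Mcm6, Stmn1, Aurka and E2f1, against 4.22% of all genes called lower. The members' median of -0.73 (-0.71 with bounds) was close to that of all genes, -0.55, and 34 of 50 were below 0. With DESeq2 size factors these medians became -0.28 and -0.23, and 4 members were called. All 10 licensing genes tested were negative (median -1.88), while the mitotic cyclin genes had a median of 0.27 and the mitotic kinase genes of 0.32. Batch 1 alone called 5 members, 4 of them among these 6, and batch 2 alone none. Mcm7, Mcm3 and Stmn1 stayed called on leaving out any 1 library, Mcm6 lost its call without CILP replicate 5 and Aurka without CILP replicate 4 or 6. E2f1 lost its call in 11 of 15 such fits.

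**Figure D2:**
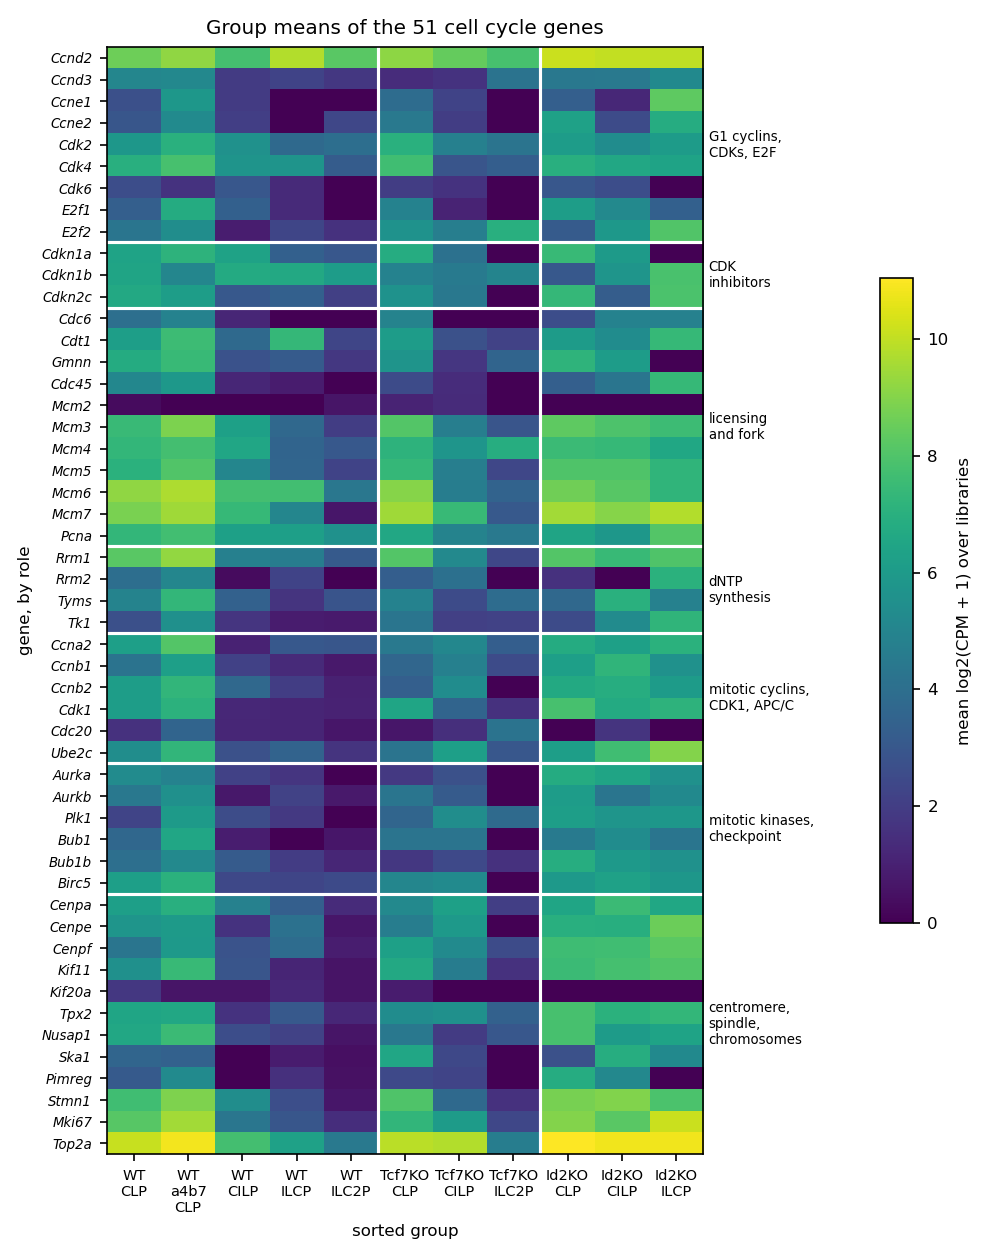
Heat map of the mean log2(CPM + 1) of each of the 51 genes, ordered by role, in the 11 groups of genotype and population. Among the wild-type columns CLP and a4b7 CLP are brightest (highest) for most genes, ILC2P is at or near 0 for Cdc6, Cdc45, Mcm7, Nusap1 and Stmn1, and Ccnd2 stays high in each population.

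Among the licensing genes, Mcm7 (Entrez 17220, chr5:138164583-138172111), a subunit of the Mcm helicase whose E2F and CHR letters are printed above, had the smallest adjusted p. It had 226 to 892 CPM in the 8 wild-type CLP libraries (median 515) and 534, 303, 615, 1034 and 1697 CPM in a4b7 CLP. In CILP it had 39.7 to 356 CPM (median 256) and in ILCP 9.88, 24.2 and 135 CPM. In ILC2P it was at 44.5 CPM in replicate 5 and at 0 in the other 7 libraries, so that ILC2P lay below every CLP library and overlapped CILP in range by that 1 library. The log2 fold change was -6.27 ± 0.75 (SE) from CLP to ILC2P (adjusted p = 1.27e-10, edgeR), -4.88 ± 0.76 from CILP to ILC2P (adjusted p = 2.01e-06) and -1.99 ± 0.57 from a4b7 CLP to CILP (adjusted p = 0.0392).

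Mcm6 (Entrez 17219, chr1:128331575-128359705), another helicase subunit, had 452 to 944 CPM in CLP (median 537), 539 to 1579 CPM in a4b7 CLP and 79.3 to 654 CPM in CILP (median 190). In ILC2P its values were 0, 125, 267, 0, 14.8, 47.7, 49.5 and 24.8 CPM in replicates 1 to 8. ILC2P thus lay below all CLP libraries and overlapped the lower CILP libraries. Its log2 fold change was -3.28 ± 0.59 (SE) from CLP to ILC2P (adjusted p = 3.41e-05, edgeR) and -2.13 ± 0.59 from CILP to ILC2P (adjusted p = 0.0214). The third such subunit, Mcm3 (Entrez 17215, chr1:20802966-20820312), had 16.3 to 382 CPM in CLP (median 240), 303 to 593 CPM in a4b7 CLP and 6.99 to 406 CPM in CILP (median 74.4). It had no more than 29.6 CPM in any ILC2P library and no count in 4 of 8. Its log2 fold change was -4.50 ± 0.82 from CLP to ILC2P (adjusted p = 4.09e-05) and -3.75 ± 0.84 from CILP to ILC2P (adjusted p = 0.00253).

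Cdc6, which loads the helicase together with Cdt1, had counts in 6 of 8 CLP libraries, at 0, 29.8, 186, 0, 176, 8.48, 48.9 and 11 CPM, in 2 of 7 CILP libraries and in no ILCP or ILC2P library. With no count in ILC2P it was at least 10.1-fold lower there than in CLP (adjusted p = 0.0076), taking 3 counts over the ILC2P group as the floor. The bound was 6.89-fold without CLP replicate 3, at 186 CPM. Cdc45, which joins the Mcm proteins in the active helicase, had 5.96 to 142 CPM in CLP and 16.4 to 223 CPM in a4b7 CLP, with counts in all 13 libraries. It had counts in 2 of 7 CILP libraries and in no ILC2P library, where it was at least 9.05-fold lower than in CLP (adjusted p = 0.00809). Without CLP replicate 5, at 142 CPM, that bound was 6.76-fold. Gmnn, whose product geminin holds Cdt1 inactive, had 130 ± 94 CPM (SD, n = 8) in CLP and 12.5 ± 22.2 CPM (n = 8) in ILC2P, and fell by 3.13 ± 0.95 on the log2 scale (adjusted p = 0.0203). The floor of 3 counts came to 5.68 CPM over the ILC2P group and 104 CPM in its shallowest library, so a 0 in 1 library leaves room for a low level.

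Pcna and Cdt1 were called in no wild-type comparison. Pcna, the sliding clamp of DNA polymerases, was found in all 8 ILC2P libraries at 24.7 to 311 CPM (median 30.6), against 23.7 to 510 CPM (median 83.4) in CILP and 88.1 to 294 CPM (median 149) in CLP. Cdt1 had 126 to 267 CPM in the 3 ILCP libraries and 0 to 172 CPM in CILP, a difference that was not called.

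In deoxynucleotide synthesis, Rrm1 (Entrez 20133, chr7:102441695-102469771), the large subunit of ribonucleotide reductase, had 81.7 to 878 CPM in CLP (median 362) and 949, 872, 1254, 241 and 335 CPM in a4b7 CLP. CILP had 81.8, 98.6, 0, 27.5, 71.2, 6.99 and 91.5 CPM in replicates 2 to 8, all below the lowest a4b7 CLP library, and 3 of them lay just above the lowest CLP library. Its log2 fold change was -2.73 ± 0.70 (SE) from CLP to CILP (adjusted p = 0.0104, edgeR) and -3.62 ± 0.74 from CLP to ILC2P (adjusted p = 0.000292). Rrm2, the small subunit that is made in S phase, went from 39.4 ± 43.9 CPM (SD, n = 8) in CLP to 0.531 ± 1.41 CPM (n = 7) in CILP and to 0 in each ILC2P library. Its adjusted p was 0.0242 between CLP and CILP and 0.0122 between CLP and ILC2P, where it was at least 6.95-fold lower. Without CLP replicate 3, at 122 CPM, that bound was 4.86-fold. Tyms and Tk1, which make and salvage thymidylate, were not called in any wild-type comparison.

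Of the mitotic cyclins, Ccna2 (Entrez 12428, chr3:36564865-36573038), which encodes cyclin A2 of S phase and G2, had 61.3, 35.8, 63.6, 32.7, 58.5, 110, 293 and 110 CPM in CLP and 300, 446, 500, 118 and 175 CPM in a4b7 CLP. In CILP it had 7.44 CPM in replicate 2, 20.7 CPM in replicate 5 and no count in the other 5, so that each CILP library lay below each CLP library of either kind. The log2 fold change was -4.27 ± 1.12 (SE) from CLP to CILP (adjusted p = 0.0118, edgeR) and -5.92 ± 1.18 from a4b7 CLP to CILP (adjusted p = 0.000744). In ILC2P it had counts in 4 of 8 libraries, at 138, 100, 14.8 and 59.6 CPM, and was not called against CLP or CILP.

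Cdk1, the kinase that cyclin A and cyclin B activate, had 33.9 to 217 CPM in CLP (median 58.1) and 68.1 to 248 CPM in a4b7 CLP. It had 23.8 and 13.8 CPM in CILP replicates 4 and 5 and no count in the other 5 CILP libraries, without overlap with CLP. The log2 fold change was -4.09 ± 1.12 from CLP to CILP (adjusted p = 0.0179) and -4.87 ± 1.18 from a4b7 CLP to CILP (adjusted p = 0.00857). In ILC2P it was at 311 CPM in replicate 5, above every CLP library, and at 0 in the other 7. Ccnb1, which encodes cyclin B1, fell between CLP and ILC2P (log2 fold change -4.0 ± 1.24, adjusted p = 0.0279). CLP replicate 5 had 886 CPM of Ccnb1, and without it the log2 fold change was -2.11 and was not called (adjusted p = 0.262). Ccnb2, Cdc20 and Ube2c were not called in the wild type.

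Among the mitotic kinases and checkpoint genes, Aurka, the Aurora kinase of the centrosome, had 50.1 ± 32.1 CPM (SD, n = 8) in CLP and no count in any ILC2P library. It was at least 8.82-fold lower in ILC2P than in CLP (adjusted p = 0.012) and at least 11-fold lower than in CILP (adjusted p = 0.0241), where 62.2 ± 125 CPM (n = 7) came from 2 of 7 libraries. Plk1, the Polo-like kinase of mitotic entry, was also at 0 in all 8 ILC2P libraries and at least 4.96-fold lower than in CLP (adjusted p = 0.0466). Without the CLP library highest for each gene, the bounds against CLP were 7.62-fold for Aurka and 2.75-fold for Plk1. The call for Plk1 was then lost. Bub1, of the spindle checkpoint, had 48.1 ± 66.1 CPM (n = 8) in CLP, 115 ± 102 CPM (n = 5) in a4b7 CLP and 2.05 ± 3.5 CPM (n = 7) in CILP, with adjusted p of 0.0411 and 0.0123 against CILP. Birc5, which encodes survivin of the chromosomal passenger complex, had the highest mean CPM of this class and was called in no wild-type comparison. Its values were 23.9 to 195 CPM in CLP (median 81.2), 0 to 55.5 CPM in CILP (median 7.58) and, in ILC2P, 242, 238, 0, 0, 14.8, 0, 0 and 0 CPM. The log2 fold change from CLP to CILP was -2.99 ± 1.04 (adjusted p = 0.0826).

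Of the chromosome and spindle genes, Top2a (Entrez 21973, chr11:98992947-99024199) encodes the topoisomerase that untangles replicated DNA, and its CHR letters are printed above. Top2a had 544, 429, 1786, 351, 1446, 2469, 2436 and 1939 CPM in CLP and 2023, 3882, 639, 1343 and 2915 CPM in a4b7 CLP. CILP had 68.3 to 571 CPM (median 231), ILCP 207, 36.3 and 67.3 CPM, and ILC2P 0 to 240 CPM (median 31.6). ILC2P lay below all CLP libraries, and CILP lay below all a4b7 CLP libraries and overlapped the 3 lowest CLP libraries, which were of batch 2. The log2 fold change was -2.47 ± 0.67 (SE) from CLP to CILP (adjusted p = 0.0242, edgeR) and -4.52 ± 0.74 from CLP to ILC2P (adjusted p = 5.26e-05).

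Stmn1 (Entrez 16765, chr4:134468320-134473843), which encodes the microtubule-destabilising protein stathmin, had 107, 107, 157, 81.7, 176, 255, 360 and 1113 CPM in CLP. It had 305 to 981 CPM in a4b7 CLP, 1.9 to 147 CPM in CILP and, in ILC2P, 37.6 CPM in replicate 2 and 0 in the other 7 libraries. Its log2 fold change was -2.90 ± 0.70 from a4b7 CLP to CILP (adjusted p = 0.00859) and -3.37 ± 0.89 from CILP to ILC2P (adjusted p = 0.0156). From CLP to ILC2P it was -5.27 ± 0.87 (adjusted p = 4.53e-06), while the CLP to CILP change was not called.

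Nusap1, which bundles spindle microtubules, had counts in each of the 8 CLP libraries (16.3 to 259 CPM) and 5 a4b7 CLP libraries (74.3 to 324 CPM), in 4 of 7 CILP libraries and in 1 of 8 ILC2P libraries, at 29.6 CPM. It fell by 4.71 ± 1.19 on the log2 scale from CLP to ILC2P (adjusted p = 0.00484). Tpx2, the spindle factor that activates Aurka, had log2 fold changes of -4.10 ± 1.06 from CLP to CILP (adjusted p = 0.0101) and -4.26 ± 1.11 from a4b7 CLP to CILP (adjusted p = 0.0173). Mki67, the gene of the proliferation antigen Ki-67, had 367 ± 219 CPM (SD, n = 8) in CLP and 14.7 ± 31.3 CPM (n = 8) in ILC2P, and its log2 fold change was -4.39 ± 1.25 (adjusted p = 0.0194).

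Pimreg, a mitotic regulator, and Ska1, a subunit of the complex that ties kinetochores to microtubules, had no count in any of the 7 wild-type CILP libraries. Pimreg had 0, 17.9, 19.6, 0, 8.36, 8.48, 42.7 and 22 CPM in CLP and 54, 149, 172, 0 and 62.3 CPM in a4b7 CLP. It was at least 6.7-fold lower in CILP than in CLP (adjusted p = 0.0306) and at least 39.3-fold lower than in a4b7 CLP (adjusted p = 0.00417). Ska1 had counts in 5 of 8 CLP libraries, at 33 to 104 CPM, and in 4 of 5 a4b7 CLP libraries. It was at least 16.5-fold lower in CILP than in CLP (adjusted p = 0.00557) and at least 8.5-fold lower than in a4b7 CLP (adjusted p = 0.0433).

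The G1 genes and CDK inhibitors showed fewer calls. Ccnd2, which encodes cyclin D2, the partner of Cdk4 and Cdk6, had the highest mean CPM of the G1 genes, on a scale of 3′ tags that is not divided by gene length, and was counted in all 31 wild-type libraries. It had 65.3 to 1399 CPM in CLP (median 605), 139 to 1727 CPM in a4b7 CLP (median 660), 55.5 to 933 CPM in CILP (median 188) and 34.5 to 1360 CPM in ILC2P (median 351). Within each wild-type population all batch 1 libraries lay above all batch 2 libraries, at 867 to 1399 against 65.3 to 651 CPM in CLP and 1216 to 1360 against 34.5 to 480 CPM in ILC2P. The log2 fold change with batch in the model was -0.32 ± 0.43 (SE) from CLP to ILC2P (adjusted p = 0.704, edgeR) and -1.13 ± 0.44 from CLP to CILP (adjusted p = 0.136). Cdk4 fell by 2.42 ± 0.80 from CLP to ILC2P (adjusted p = 0.0339). E2f1 and Ccne1, the cyclin E1 gene, had no count in ILC2P and were at least 4.97-fold (adjusted p = 0.0298) and 7.7-fold (adjusted p = 0.0437) lower than in CLP. For E2f1 the bound was 3.53-fold without CLP replicate 7, at 85.5 CPM, and the call was lost. Ccne1 was at 254 CPM in CLP replicate 3 and at a median of 3.05 CPM over the 8 CLP libraries. Without that library the bound was 2.4-fold and the call was lost (adjusted p = 0.156). E2f2, another activating E2F factor, had 3.66 ± 8.88 CPM (SD, n = 7) in CILP against 108 ± 104 CPM (n = 5) in a4b7 CLP (adjusted p = 0.0344).

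Cdkn1a, the CDK inhibitor induced by DNA damage, was counted in every wild-type CLP, a4b7 CLP and CILP library, at 16.3 to 307, 80.5 to 254 and 36 to 189 CPM. In ILCP it had 0, 1127 and 0 CPM, and in ILC2P 0, 0, 0, 230, 193, 11.9, 0 and 24.8 CPM. The groups overlapped and no comparison was called, with a log2 fold change of -0.90 ± 0.82 (SE) from CLP to ILC2P (adjusted p = 0.52, edgeR). Cdkn1b, which marks resting cells, had 30.7 to 526 CPM in CLP (median 69.1), 36.6 to 315 CPM in CILP (median 107) and 0 to 334 CPM in ILC2P (median 109), and was called in no wild-type comparison.

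**Figure D3:**
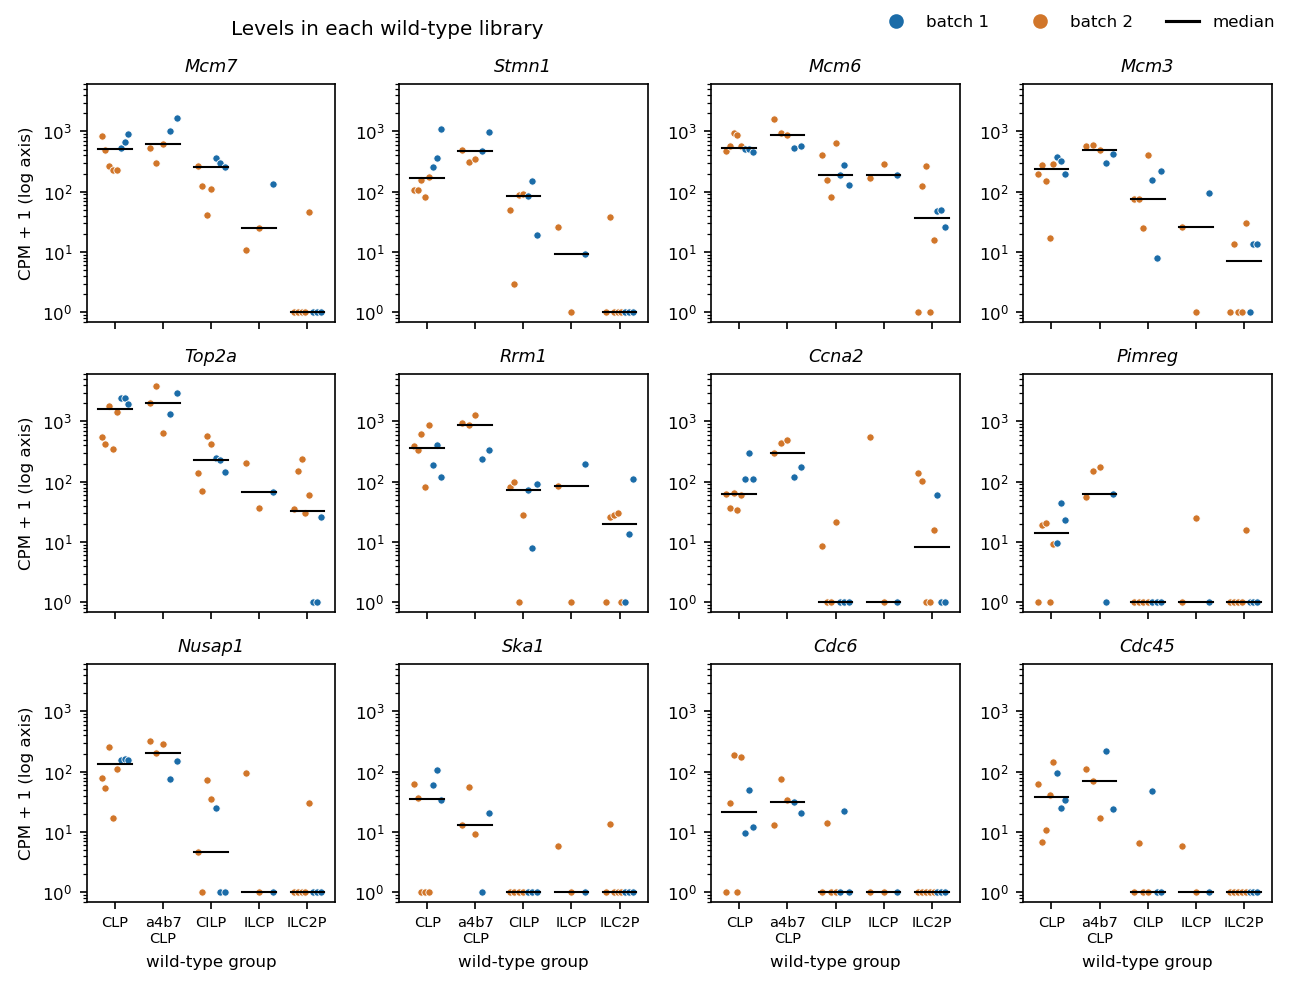
CPM + 1 on a log axis of 12 members in each library of the 5 wild-type populations, with a line at the median. Mcm7, Stmn1, Cdc6 and Cdc45 are at 0 in most or all ILC2P libraries, whereas the CLP and a4b7 CLP libraries of Top2a, Mcm6 and Mcm7 all lie above 200 CPM.

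In ILCP, 1 member rose against CILP, against 0.31% of all genes called higher. This was Ccna2, with 553, 0 and 0 CPM in the 3 ILCP libraries against 0 to 20.7 CPM in CILP (log2 fold change 5.20 ± 1.24, adjusted p = 0.0237). The counts came from ILCP replicate 1 alone, in which erythroid markers took 1.21% of counts, and their part in the result was not tested. Without that library the log2 fold change was -2.65, and the call was also lost without CILP replicate 3, 4, 6 or 7. The members' median was -0.51 (20 of 50 above 0) against -0.27 over all genes, and -1.98 without that library. Ccnd2 had 696, 666 and 1422 CPM in ILCP against 301 ± 293 CPM (SD, n = 7) in CILP and was just short of the threshold, with a log2 fold change of 2.09 ± 0.55 (adjusted p = 0.0584).

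In CLP, no member was called for either deletion. The share of counts was 0.505 to 1.12% in TCF7-/- CLP and 1.06 and 1.00% in Id2-/- CLP, inside the wild-type range. No gene at all (0%) was called in TCF7-/- CLP, and 1 member passed an unadjusted p under 0.05 against 6.50% of all genes. In Id2-/- CLP 0.0365% of all genes were called, and 2 members passed an unadjusted p under 0.05 against 3.17%. DESeq2 and limma-voom also called no member in either. The members' median log2 fold changes were -0.13 and 0.38, against -0.12 and -0.08 over all genes.

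In CILP, libraries of both deletions reached member shares above the wild-type range of 0.118 to 0.448%. The Id2-/- libraries had 0.991% (95% exact binomial interval 0.943 to 1.04, counting error only) and 0.747% (0.711 to 0.783). The TCF7-/- libraries, replicates 1 to 4, had 1.05, 0.397, 0.179 and 0.875%, so that 2 of 4 lay inside the wild-type range. Shares of counts on cell type markers are given for the same libraries. ILC progenitor markers took 0.102 and 0.103% of counts in the Id2-/- libraries and 0.177, 0.245, 0.539 and 0.105% in the TCF7-/- libraries, against 0.359 to 0.651% in the wild type, and Tcf7 and Id2 are among those 7 markers. Erythroid markers took 0.252 and 0.261% in the Id2-/- libraries and 1.33, 0.163, 0.0298 and 3.8% in the TCF7-/- libraries, against 0 to 0.121%. Of the 12 erythroid markers, 6 were higher in both Id2-/- libraries than in all wild-type CILP libraries (Car1, Car2, Klf1, Gata1, Epor and Ermap) and 3 were at 0 in both (Hba-a1, Hbb-bs and Alas2). Car1 was at 1198 to 1557 CPM there against at most 439 CPM in the wild type, and Gata1 at 91.9 to 470 CPM against at most 34.4 CPM. In the TCF7-/- libraries all 12 reached a level above the wild-type maximum in at least 1 library, and none in each library. Myeloid markers took 0.0384 to 0.0655% in the Id2-/- libraries, 1.11, 0.0996, 0 and 1.11% in the TCF7-/- libraries and 0 to 0.156% in the wild type. Of these 13 markers, 4 were higher in both Id2-/- libraries than in all wild-type ones (Mpo, Ctsg, Prtn3 and Ms4a3) and 8 were at 0 in both. In the TCF7-/- libraries 8 of the 13, among them S100a8 (up to 4679 CPM against at most 931 CPM) and Camp (up to 1921 CPM against at most 18.3 CPM), exceeded the wild-type maximum in at least 1 library, and Elane, Mpo, Ms4a3 and Prtn3 were at 0. Of 11 B lineage and plasma cell markers, 8 exceeded the wild-type maximum in at least 1 TCF7-/- library and 0 in each library, among them Ebf1 (up to 680 CPM against at most 3.72 CPM). In the Id2-/- libraries 0 of the 11 exceeded it and 8 were at 0 in both. Il7r, listed with the CLP markers, had 81.4 to 178 CPM in Id2-/- CILP and 60 to 2013 CPM in TCF7-/- CILP, against 920 to 3132 CPM in the wild type. The part of other cells in the member results was not tested.

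**Figure D4:**
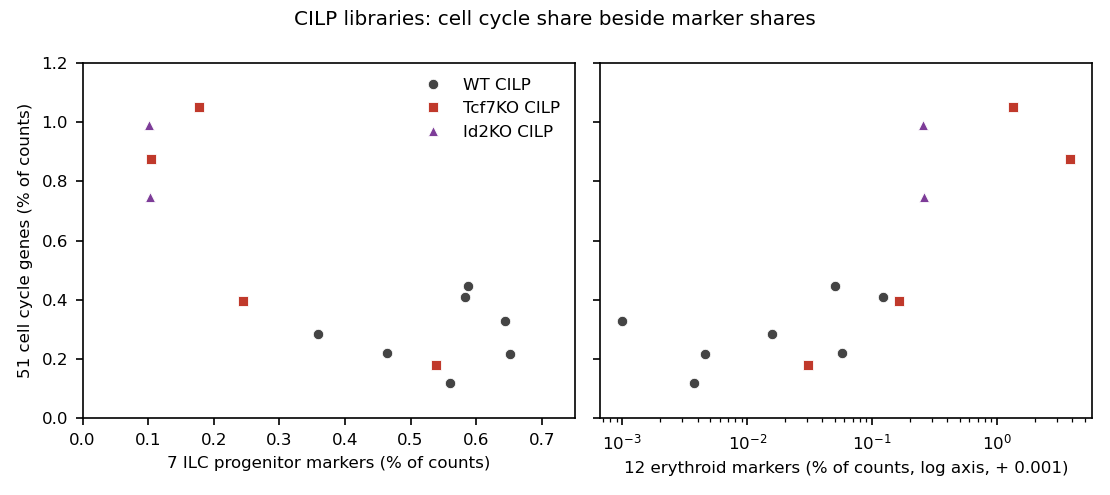
Share of counts of the 51 genes (vertical axis, percent) in each CILP library against the share of the 7 ILC progenitor markers and against the share of the 12 erythroid markers plus 0.001 (log axis), by genotype. Both Id2-/- libraries and TCF7-/- replicates 1 and 4 combine a member share of 0.747% or above with an ILC progenitor marker share of 0.177% or below, while the wild-type libraries lie at 0.359% or above on that axis.

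In Id2-/- CILP against the wild type 1 member rose, against 0.0547% of all genes called higher. Ska1 had 227 and 58.8 CPM against 0 in all 7 wild-type libraries and was at least 64.2-fold higher (adjusted p = 0.0147). It was no longer called without Id2-/- replicate 1 (log2 fold change 6.43) or without wild-type replicate 3 (7.6). The members' median was 1.37 (1.56 with bounds), with 43 of 50 above 0, against -0.15 over all genes, and for 16 members both Id2-/- libraries lay above all wild-type libraries, against 6.51% of all genes. Top2a had 2543 and 1230 CPM, against 571 CPM in the highest wild-type CILP library. Stmn1 had 552 and 434 CPM against at most 147 CPM, and Mcm7 had 521 and 516 CPM against at most 356 CPM. Cdk1 had 172 and 67.8 CPM, against 5.37 ± 9.61 CPM (SD, n = 7), and missed the threshold (log2 fold change 5.60 ± 1.41, adjusted p = 0.075). Pimreg had 24.5 and 49.7 CPM against 0, at least 16.7-fold higher with an adjusted p of 0.0827. Rrm2 had no count in either Id2-/- CILP library. All Id2-/- libraries were of batch 1, and within that batch 6 members were called, namely Top2a, Stmn1, Cdk1, Ccna2, Cenpe and Ube2c, without Ska1 (adjusted p = 0.0914).

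In TCF7-/- CILP 3 members were called higher, against 0.419% of all genes, and each rested on 1 or 2 libraries. Pimreg had 520, 0, 0 and 0 CPM against 0 in the wild type, at least 58.5-fold higher (adjusted p = 0.0282), with a log2 fold change of 0.09 without replicate 1. Cdk1 had 0, 0, 51.1 and 356 CPM (log2 fold change 5.26 ± 1.32, adjusted p = 0.0423), and 2.45 without replicate 4. E2f2 had 420, 3.17, 0 and 285 CPM (5.63 ± 1.43, adjusted p = 0.0492), and was not called without replicate 1 (4.66) or replicate 4 (5.10). The number of called members also dropped to 0 without wild-type CILP replicate 2, 3, 5 or 7 and to 1 without replicate 4 or 8, and was 6 without TCF7-/- replicate 3. Top2a had 2159, 764, 357 and 925 CPM, of which 3 lay above all wild-type libraries, and was not called. The members' median was 0.91 (1.22 with bounds) with 33 of 50 above 0, against -0.32 over all genes. With the 5 libraries that carry markers of another lineage left out, replicates 1 and 4 among them, the median was 0.10 and no member was called. Replicates 1 and 4 also had the highest member shares of this group, so a lower median follows from leaving them out. The part of other cells in it was not tested.

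In TCF7-/- ILC2P 1 of the 50 members tested was called higher, a share no larger than the 2.54% of all genes called higher. Plk1 had 0 and 199 CPM against 0 in all wild-type ILC2P libraries, at least 17.5-fold higher (adjusted p = 0.0306), with a log2 fold change of 0.08 without replicate 2, and it was no longer called without wild-type replicate 2 (7.03). The member shares were 0.0968 and 0.0925%, inside the wild-type range of 0.0734 to 0.267%. B lineage and plasma cell markers took 18.0% of counts in replicate 1 and mature T cell markers 0.756% in replicate 2, and their part in the result was not tested. Members had a median of -0.40 (-0.23 with bounds) against 0.19 over all genes. With the 5 libraries that carry markers of another lineage left out, which leaves replicate 2 alone, the medians were -2.42 and 0 and 2 members were called higher, Mcm7 and Plk1. Leaving out replicate 1 by itself gave 1 called member.

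Within the mutants, the step from CLP to CILP called no member by edgeR. In TCF7-/- mice 0.529% of all genes were called, and 7 members passed an unadjusted p under 0.05 against 12.1% of all genes, while DESeq2 called 2 members and limma-voom 4. The member median was -0.40, against -1.61 in the wild type. It was -1.48 with the 5 libraries that carry markers of another lineage left out, which drops the TCF7-/- CILP replicates with the highest member shares (1 and 4). In Id2-/- mice 0.0273% of all genes were called, no member passed an unadjusted p under 0.05 against 4.44%, and neither other tool called a member. The median there was -0.34. The difference of the CLP to CILP step between genotypes was tested as an interaction and called no member for either deletion. For TCF7-/- the interaction called 0.0456% of all genes, and 13 members had an unadjusted p under 0.05 against 9.08%. DESeq2 and limma-voom called none, a fit without a filter called 1, and the member median of 1.34 became -0.16 with the same 5 libraries left out. For Id2-/- the interaction called 0.0365% of all genes, 3 members had an unadjusted p under 0.05 against 4.81%, limma-voom called 1 member and the median was 1.24. The Id2-/- ILCP library, which has no replicate, had a member share of 1.02% (0.961 to 1.08), with erythroid markers at 1.91%, myeloid markers at 1.58% and Il2ra, Klrg1 and Zbtb16 at 0.

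Other genes of the pathway were taken from lists of general knowledge, which were chosen with earlier results of these data known. Of 40 other S phase genes tested, 4 fell from CLP to CILP (median log2 fold change -1.65), 5 from CILP to ILC2P (-1.13) and 17 from CLP to ILC2P (-2.77), and none rose. With genes lacking counts in a group set at their bound, the last 2 medians were -1.0 and -2.67. Over all genes 1.97, 4.22 and 8.0% were called lower in these comparisons, with medians of 0.06, -0.55 and -0.43. Pold1, the catalytic subunit of DNA polymerase delta, had log2 fold changes of -2.81 ± 0.74 from CLP to CILP (adjusted p = 0.0118) and -3.94 ± 0.81 from CLP to ILC2P (adjusted p = 0.000317). Cdca7 had no count in ILC2P and was at least 26.6-fold lower than in CLP (adjusted p = 0.000313). Uhrf1, which guides DNA methylation to replicated DNA, fell by 4.88 ± 1.19 from CILP to ILC2P (adjusted p = 0.00763).

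Of 50 other G2 and M phase genes tested, 6 fell from CLP to CILP (median -1.57), 3 from CILP to ILC2P (-1.03) and 20 from CLP to ILC2P (-2.8). With bounds these medians were -1.60, -0.91 and -2.10. Over all genes 1.97, 4.22 and 8.0% were called lower, with medians of 0.06, -0.55 and -0.43. The share called from CILP to ILC2P was thus near that of all genes. Foxm1, the transcription factor of this gene group, had no count in CILP and was at least 17.9-fold lower than in CLP (adjusted p = 0.0188). Nuf2, a kinetochore gene, fell by 4.56 ± 1.26 between the same groups (adjusted p = 0.0187). Among 20 pocket proteins, other cyclins, CDK inhibitors and E2F genes tested, 2 fell from CLP to CILP (median 0.13, or 0.16 with bounds) and 5 from CLP to ILC2P (-0.70, or -1.16 with bounds), against the same shares and medians of all genes. E2f7, an atypical repressor of the family, was at least 27.6-fold lower in CILP than in CLP (adjusted p = 0.00678). Ccnd1, the cyclin D1 gene, fell by 4.52 ± 1.02 from CLP to ILC2P (adjusted p = 0.00154).

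Of 13 genes tested that are linked to quiescence and growth arrest, 4 rose from CLP to ILC2P and 1 fell, against 3.46% of all genes called higher and 8.0% lower, with a median of 0.38 against -0.43 over all genes. The genes named below are ones that rose, so they do not stand for the list, and the 1 that fell is not named. From CILP to ILC2P, 1.1% of all genes were called higher and 4.22% lower, and the listed genes called in each direction are not counted here. In that comparison Txnip, an inhibitor of glucose uptake, had 1779 ± 1715 CPM (SD, n = 8) in ILC2P against 411 ± 150 CPM (n = 7) in CILP, and rose by 2.16 ± 0.45 (adjusted p = 0.00102). Klf6, a zinc finger factor, had 879 ± 338 CPM (n = 8) against 262 ± 202 CPM (n = 7) and rose by 1.84 ± 0.55 (adjusted p = 0.0302). Tob1 and Btg1, of the antiproliferative BTG/TOB family, rose from CLP to ILC2P by 4.38 ± 1.17 (adjusted p = 0.00799) and 1.76 ± 0.48 (adjusted p = 0.0114).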

How the data were processed

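The values deposited by the authors are raw counts of reads for each gene, listed by Entrez identifier in a separate table for each of 2 batches. The submitters' processing notes name CASAVA 1.8.2 for base calling, the build mm10, featureCounts, limma, and edgeR in versions 3.8.2 and 3.22.0. The aligner is not named in the sources used. No molecular identifiers are stated, and intervals (95%) and floors (3 counts) therefore cover counting error only. RefSeq GRCm38.p6 gave symbols to 25275 identifiers (92.99%), and 0 value columns lacked a sample.

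Of 70 samples, 4 technical repeats were summed with the library they repeat, giving 66 libraries. Left out were 12 spike-in controls, 6 Nfil libraries (labelled unused) and 1 CILP library of the wild type that the submitters call an outlier, which kept 47 (22 in batch 1 and 25 in batch 2). Replicates were numbered in accession order, with wild-type CILP running from 2 to 8. In R 4.3.3, edgeR 4.0.16 fitted a group mean and a batch term to the deposited counts by robust quasi-likelihood, after filterByExpr (10 counts, 15 in total) and TMM, with 35 residual degrees of freedom, a biological coefficient of variation of 109.7% and p-values adjusted over 10972 genes. All groups shared 1 estimate of spread, and groups of 1 or 2 libraries are assumed to vary like the others. The code was checked on simulated data.

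The same comparisons were repeated with DESeq2 1.42.0, with DESeq2 size factors in edgeR, and with limma-voom (limma 3.58.1), without the filter or the batch term, in single batches, with libraries left out and with only the compared groups. The members and lists were chosen with earlier results of these data known. Values by library are given for the 12 members with the smallest adjusted p over wild-type comparisons, the most abundant member of each role class with none, and each member called in a knockout comparison. Other listed genes were named among the 4 smallest adjusted p of a list and comparison, and other members, named for their role, were chosen after their values were seen.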

Additional observations from a re-analysis of the deposited data

Results flagged for a closer look

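Over 48 combinations of group and role class, 3 had a library that stood apart from the others of its group by Dixon's test, and chance gives about 1 in 20. TCF7-/- CILP replicate 4 had the highest share of counts in G1 genes of its 4 libraries, at 0.172%. TCF7-/- CLP replicate 4 had the lowest share in licensing and fork genes of its 5 libraries, at 0.178%. Wild-type ILC2P replicate 5 had the highest share in mitotic cyclin genes of its 8 libraries, at 0.0773%, and it is the library in which Cdk1 had 311 CPM.

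Member counts in 5 libraries outside the comparisons exceeded the 88 found in the highest spike-in well, a limit that wild-type ILC2P replicates 1, 3 and 4, with 32, 67 and 48 member counts, did not reach. They were 93 in the outlying wild-type CILP library, 1126 and 685 in the Nfil CLP libraries 1 and 2, 94 in Nfil CILP library 1 and 114 in Nfil ILC2P library 1.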

How the results depend on the processing

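No paired analysis was possible because replicate numbers were given in accession order and the labels pair no libraries. Of 55 called pairs of member and comparison, 5 passed in every fit that tested them, namely Mcm7, Mcm6, Top2a and Rrm1 from CLP to ILC2P, which were tested in all alternatives (4 pairs), and Mcm3 in the same comparison, which was not tested with only the compared groups. The shallow ILC2P libraries and the spread between libraries limit what can be called, and comparisons with 2 libraries in a group rest on 1 of them when the other is left out. Fits in batch 2 alone for Id2-/- and in batch 1 alone for TCF7-/- ILC2P could not be made. Leaving out the libraries with markers of another lineage was chosen after seeing the data. Fits with only the compared groups kept fewer genes past the filter. They tested 18 members from CLP to CILP, 7 from CLP to ILC2P and 3 from CILP to ILC2P. Of the 22 members called from CLP to ILC2P, 4 were tested there and all 4 passed. Of the 9 from CLP to CILP, 2 were tested and both passed. Of the 6 from CILP to ILC2P, 1 was tested and did not pass. Of the 3 in TCF7-/- CILP and the 1 in TCF7-/- ILC2P none was tested. The cause of the other changes below was not tested.

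Members called between CLP and CILP (9) became 18 by limma-voom, 5 in batch 1 alone, 0 in batch 2 alone, 4 with only the compared groups, and 4 to 11 without 1 library, the fewest without CILP replicate 3. Against a4b7 CLP (12) they became 33, 7 and 1 by limma-voom and in batches 1 and 2, and 7 to 13 without 1 library. From CILP to ILCP (1) they became 2 by DESeq2, with its size factors, with the outlier put back and with shallow libraries left out, 0 in either batch and without other-lineage libraries, and 0 to 2 without 1 library. From CILP to ILC2P (6) they became 3 by limma-voom, 0 in batch 2 and 0 with only the compared groups, and 5 to 7 without 1 library. From CLP to ILC2P (22) they became 5 in batch 2, 4 with only the compared groups and 16 to 23 without 1 library. Counts with only the compared groups, here and below, are lowered by members not tested there, as given above.

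In TCF7-/- CILP (3) they became 8 by DESeq2, 7 with its size factors, 8 without a filter, 1 without a batch term, 0 by limma-voom, in batch 2, without other-lineage libraries and with only the compared groups, and 0 to 6 without 1 library. In TCF7-/- ILC2P (1) they became 0 with size factors, by limma-voom, in batch 2, without shallow libraries and with only the compared groups, 2 without other-lineage libraries and 0 to 2 without 1 library, and the 1 of DESeq2 was another gene, Cdkn1a. In Id2-/- CILP (1) they became 17 by limma-voom, 5 without a filter, 6 in batch 1, 2 without other-lineage libraries and 0 to 1 without 1 library. From CLP to CILP in TCF7-/- mice (0) they became 2 by DESeq2, 4 by limma-voom, 6 in batch 1 and 0 to 1 without 1 library. The TCF7-/- interaction (0) became 1 without a filter and 1 in batch 1, and the Id2-/- interaction (0) became 1 by limma-voom and 2 in batch 1. The other comparisons with no call stayed at 0 in each alternative and, like both interactions, at 0 to 0 without 1 library.

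With TMM-scaled totals the mean member share moved from 0.296 to 0.328% in wild-type ILCP and from 0.0946 to 0.154% in TCF7-/- ILC2P. In 7 fits a called log2 fold change lost or turned its sign. Ccna2 from CILP to ILCP was 0 in batch 1 alone, -2.63 without other-lineage libraries and, without 1 library, -2.65 (ILCP replicate 1) to 6.23. In TCF7-/- CILP, Cdk1 was -3.47 in batch 2 alone, Pimreg 0 in batch 1 alone and -0.01 without other-lineage libraries, and E2f2 -0.23 without other-lineage libraries.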
